A study of Mus musculus with 16 samples.

Results

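CD11b+ cells of mice lacking histidine decarboxylase (HDC-/-) were set against CD11b+ cells of wild-type (WT) mice, on the 8 of 16 arrays of the series whose titles carry these genotypes. There were 4 HDC-/- arrays and 4 WT arrays, and each genotype had 1 array for spleen on control diet, 1 for spleen on high-fat diet (HFD), 1 for bone marrow on control diet and 1 for bone marrow on HFD. Every HDC-/- array therefore has a WT partner of the same tissue and diet, giving 4 pairs, 2 of them on HFD. Each array held RNA from the CD11b+ cells of 5 mice pooled together, all mice were labelled male, and HFD was given for 3 months to model atherosclerosis. The HDC-/- allele, the strains and the ages of the mice are not given in the sources used here. The STAT6-/- arrays, 4 with the same tissues and diets, are used below because they lie on the same slides as the HDC-/- arrays, whereas the WT arrays lie on other slides. The STAT4-/- arrays of the series share the slides of the WT arrays. For HDC-/- against WT, genotype and slide cannot be told apart.

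Histidine decarboxylase is the enzyme that makes histamine from histidine. Besides mast cells and basophils, immature myeloid cells of the marrow transcribe its gene, Hdc, and histamine acts on leukocytes through G protein-coupled receptors. CD11b is the alpha chain (Itgam) of the integrin Mac-1, which pairs with the beta chain Itgb2 and is carried by neutrophils, monocytes, macrophages and a part of natural killer and dendritic cells.

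Values below are log2 signals after division by the 75th percentile of each array, so 0 is the brightness at that percentile. Where 4 values follow each other, they are spleen on control diet, spleen on HFD, marrow on control diet and marrow on HFD, in this order. A difference is HDC-/- minus WT on that log2 scale, so 1 stands for a doubling. A gene was called when its Benjamini-Hochberg adjusted p in limma was under 0.05 over 28471 features. With 1 array for each combination, the spread in these tests comes from what a model of all 16 arrays leaves unexplained, and no condition has a replicate of its own.

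2 of these 8 arrays stood apart before any comparison. On both control-diet HDC-/- arrays the genes of the Y chromosome averaged -8.42 in spleen and -7.83 in marrow, against -0.16 and -0.11 on the HFD HDC-/- arrays and 0.06 to 0.33 on the WT arrays. Xist, the RNA that silences an X chromosome in female cells, was well above background on exactly these 2 of the 4 HDC-/- arrays, at -3.58 and -3.59, and on 0 of 4 WT arrays. These 2 arrays thus went against the label male. The control-diet marrow array also carried more RNA of other cell types: pro-B and pre-B cell genes had a mean level of 0.90 there, against -1.60 on its WT partner. Results over all 4 pairs are therefore given together with the HFD pairs alone. Signal depth was similar in range, with 62.3% to 84.1% of probes well above background on these 8 arrays. In marrow the share was 62.3% and 68.0% on the HDC-/- arrays, against 81.1% and 81.2% on the WT arrays, while in spleen it was 84.1% and 76.5% in HDC-/- against 70.3% and 82.4% in WT.

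Hdc itself was low on every array labelled HDC-/-. Its signal was 1.55, 0.94, 1.49 and 1.87 in HDC-/- cells, against 5.18, 4.26, 5.75 and 5.62 in WT cells. The groups did not overlap, and the other arrays lay between 4.02 and 5.75, with 1 STAT4-/- spot left out as an outlier by the scanner software. The mean was 1.46 ± 0.39 in HDC-/- and 5.20 ± 0.67 in WT (SD, n = 4 arrays each), a difference of -3.74 or 13.4-fold. The exact permutation test, two-sided, gave p = 0.0286, the smallest that 4 arrays against 4 can give. Its 70 arrangements exchanged arrays across tissue and diet, so it did not use the pairing. Pair by pair the signal was lower by 12.4-fold, 10-fold, 19.1-fold and 13.4-fold. The HDC-/- spots were still well above background, so some signal was left on this probe; which part of the transcript the probe covers relative to the deletion was not examined. Of the 5 genes on each side of Hdc, 5 could be tested and 0 were called, where 0.151% of all features were. Their differences lay between -0.82 for Slc27a2, a fatty acid transporter, and 0.62 for Dtwd1, against -3.74 for Hdc. Slc27a2 was lower in 3 of the 4 pairs, at -1.34, -0.79, -1.37 and 0.22.

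The cells of both genotypes carried CD11b. Itgam had 3.10, 4.93, 4.70 and 5.70 in HDC-/- cells, against 3.79, 3.99, 5.92 and 5.87 in WT cells. The difference of -0.29 ± 0.42 (SE) did not pass limma's test (adjusted p = 0.847), nor did Itgb2 at -0.19 (adjusted p = 0.868). Of the other histamine genes, 8 could be tested and 0 were called, where 0.151% of all features were. Hnmt, which breaks histamine down, differed by -0.73, the receptors Hrh1 and Hrh4 by 0.24 and -0.21, and the vesicular transporter Slc18a2 by 0.80.

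Across both tissues 43 features were called, 0.151% of those tested: 14 were higher in HDC-/- cells and 29 lower. The median difference over all features was -0.07. At an unadjusted p under 0.05, 3126 features passed. These calls rest on the spread over all 16 arrays: with limma on the 8 HDC-/- and WT arrays alone and the pair as a block, 0 features were called and 1305 passed an unadjusted p under 0.05. Without the 2 control-diet HDC-/- arrays 14 features were called, 10 of them among the 43. Among the called genes were oligoadenylate synthetases and other genes in which STAT6-/- cells resembled HDC-/- cells, genes on the chromosome that carries Hdc, and single genes of inflammation. Against STAT6-/- 3 features were called (0.0105%): Vps16 and a feature without a gene symbol were higher in HDC-/-, and Rbbp9 was lower; 1824 passed an unadjusted p under 0.05. That comparison uses the same HDC-/- arrays as the fit against WT, so the 2 differences are given side by side and are not independent.

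The largest difference was that of the Oas1 genes. They belong to an interferon-induced family whose active members sense double-stranded RNA and make 2'-5' oligoadenylates to switch on RNase L. Oas1a had 5.39, 3.04, 4.82 and 4.03 in HDC-/- cells, against -7.93, -6.89, -6.60 and -7.00 in WT cells, where its probe was not well above background on any of the 4 arrays. It was at least 2172-fold higher in HDC-/- cells (fitted difference 11.42 ± 0.49, SE, adjusted p = 5.20e-06). For this bound, WT signals under the lowest signal measurable on their array were raised to it. STAT6-/- cells had 3.12, 2.78, 3.51 and 3.68, so WT was the low group and the HDC-/- minus STAT6-/- difference was 1.05. Oas1f showed the same order, with 3.80, 1.48, 3.16 and 2.35 in HDC-/-, against -4.18, -3.05, -2.98 and -2.91 in WT (difference 5.98 ± 0.46, adjusted p = 0.000673). The highest signals outside HDC-/- cells, 3.79 for Oas1a and 2.17 for Oas1f, came from STAT4-/- arrays, which lie on the WT slides. Oas1g was dimmer, at -3.27, -5.77, -3.62 and -4.48 in HDC-/- and -9.16, -9.15, -7.04 and -8.67 in WT, or at least 6.53-fold higher in HDC-/- (adjusted p = 0.00839). A second probe of Oas1a differed by 9.07. The second probe of Oas1g was well above background on 1 of 4 HDC-/- and 0 of 4 WT arrays and gives no usable difference. The Oas1 genes are close copies of each other on chromosome 5, and probes of one may bind RNA of another, which was not tested. Of 23 tested genes of the type I interferon list, 1 was called over both tissues, where 0.151% of all features were. It was Oas1a, and the list is described by pair further on.

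The promoters of Oas1a and Oas1g are shown because both genes carry the core of the interferon-stimulated response element just before the transcript start. The sequences are RefSeq's (GRCm38.p6), 250 bases before to 50 bases after the start, and capitals mark matches to GAAANNGAAA.
Oas1a, chr5:120907476-120907775, minus strand: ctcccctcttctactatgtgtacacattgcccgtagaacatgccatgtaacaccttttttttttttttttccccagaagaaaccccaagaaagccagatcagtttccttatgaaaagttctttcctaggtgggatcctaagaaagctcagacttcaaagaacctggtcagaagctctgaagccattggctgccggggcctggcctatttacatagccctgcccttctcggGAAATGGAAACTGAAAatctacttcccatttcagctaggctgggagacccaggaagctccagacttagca
Oas1g, chr5:120887564-120887863, minus strand: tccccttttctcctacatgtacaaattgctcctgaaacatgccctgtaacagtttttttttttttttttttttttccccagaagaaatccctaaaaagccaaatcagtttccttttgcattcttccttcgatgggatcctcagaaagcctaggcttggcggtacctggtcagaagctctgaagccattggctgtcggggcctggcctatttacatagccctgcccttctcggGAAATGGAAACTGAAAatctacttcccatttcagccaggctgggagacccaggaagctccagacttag
Each holds 2 overlapping matches, which begin 20 and 14 bases before the start in Oas1a and 18 and 12 bases before it in Oas1g. Oas1f has no match in this window. Searched on both strands, the motif occurs in 12 of 18 type I interferon genes with a promoter in the table (66.7%), against 3.99% of 27025 genes. A match is a description of letters and not evidence of binding.

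Several genes on chromosome 2, which carries Hdc, set HDC-/- cells apart from WT and STAT6-/- cells alike. Vps16, a core subunit of the complexes that tether vesicles to endosomes and lysosomes, had 3.12, 2.89, 2.96 and 2.81 in HDC-/- cells, against -4.18, -3.91, -2.0 and -2.69 in WT cells. STAT6-/- cells had -3.98, -3.75, -2.60 and -2.09. The HDC-/- arrays were nearly level and far above all others, by 6.14 ± 0.27 over WT (adjusted p = 5.20e-06) and by 6.05 over STAT6-/- on the same slides (adjusted p = 1.04e-05). Rbbp9, a serine hydrolase first described as a binder of the retinoblastoma protein, was its opposite, at -6.22, -6.32, -7.21 and -7.43 in HDC-/- against -2.03, -1.67, -1.37 and -1.56 in WT. The probe was well above background on 1 of 4 HDC-/- arrays, and the fitted differences were -5.14 ± 0.23 from WT (adjusted p = 5.20e-06) and -5.23 from STAT6-/-. With signals on the other 3 arrays raised to the lowest measurable one where they lay under it, the differences were -4.53 and -4.63. A second Rbbp9 probe, well above background on all 8 arrays, differed by 0.27, so the 2 probes of this gene disagree.

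Mgme1, a mitochondrial exonuclease, had -4.15, -5.58, -4.07 and -5.74 in HDC-/- cells, against -2.16, -2.17, -1.82 and -2.33 in WT cells (difference -2.77 ± 0.36, adjusted p = 0.0235). Its difference from STAT6-/- was -2.76. Itpa, which clears inosine triphosphate, had 2.25, 2.34, 2.71 and 2.62 in HDC-/- cells, against 0.79, 0.58, 1.22 and 0.76 in WT cells (difference 1.64 ± 0.23, adjusted p = 0.0359), and it was 1.42 above STAT6-/-. Gchfr, the feedback regulator of GTP cyclohydrolase 1, was 2.00 above WT and 0.98 above STAT6-/-. Crnkl1, a splicing factor, was 1.82 below WT and 1.78 below STAT6-/-. Trim69 was 1.95 below WT but only 0.74 below STAT6-/-. Among these chromosome 2 genes only Vps16 and Rbbp9 were called against STAT6-/-. Of 1540 genes of chromosome 2 that were tested, 7 were called (0.455%), against 29 of 18666 genes with a symbol (0.155%). In gene order along the chromosome, counting tested genes, Gchfr lay 100 and Trim69 31 places before Hdc, and Vps16, Itpa, Mgme1, Rbbp9 and Crnkl1 lay 59, 68, 132, 139 and 148 places after it.

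**Figure D1:**
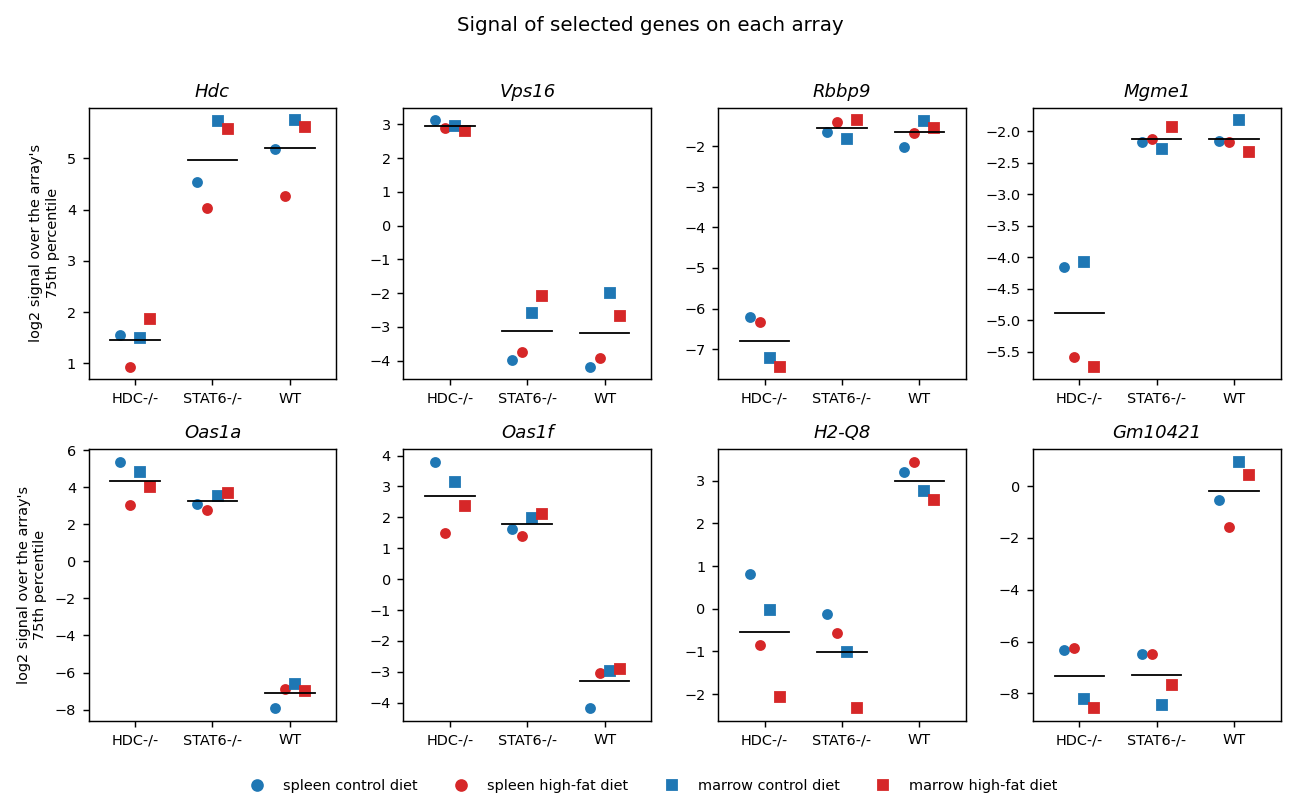
Log2 signal over each array's 75th percentile (vertical axes) for 8 genes on the HDC-/-, STAT6-/- and WT arrays. Circles are spleen, squares are marrow, blue is control diet, red is HFD, and bars are means of 4 arrays. In the upper row (Hdc and 3 other chromosome 2 genes) HDC-/- stands alone; in the lower row WT stands alone and HDC-/- lies near STAT6-/-.

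In a further set of genes HDC-/- and STAT6-/- cells both lay apart from WT. Gm10421, a predicted gene, had -6.33, -6.25, -8.21 and -8.58 in HDC-/- cells, where 2 of 4 arrays were well above background, against -0.53, -1.57, 0.95 and 0.44 in WT cells. Its fitted difference from WT was -7.16 ± 0.33 (adjusted p = 5.20e-06), or -6.03 when arrays not well above background are raised to their lowest measurable signal. STAT6-/- cells had -6.47, -6.48, -8.45 and -7.69, likewise well above background on 2 of 4 arrays, so no difference between the knockouts is given. H2-Q8, a nonclassical MHC class I gene, had 0.81, -0.85, -0.03 and -2.07 in HDC-/- against 3.21, 3.44, 2.76 and 2.54 in WT (difference -3.53 ± 0.40, adjusted p = 0.0119), and 0.47 more than in STAT6-/-. Ctps2, which makes CTP, had 2.33, 2.67, 2.61 and 3.14 in HDC-/- against -0.59, -0.55, 0.02 and 0.02 in WT (difference 2.96 ± 0.24, adjusted p = 0.000916), and differed from STAT6-/- by -0.36. Glo1, which detoxifies methylglyoxal, was 1.80 above WT and Ubtd1 3.08 above it, while both lay within 0.11 of STAT6-/-. Gdf3, a TGF-beta family ligand, was higher by 3.43 ± 0.50 (adjusted p = 0.0414), but its second probe differed by 0.47. For Ubtd1 and Gdf3 the highest signals outside HDC-/- cells, 0.62 and -1.40, came from STAT4-/- arrays.

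The 29 lower features included single genes of inflammation, grouped here after their values were seen. Acod1, the enzyme that makes itaconate in activated macrophages, had 2.07, 1.95, 0.83 and 2.38 in HDC-/- cells, against 5.41, 4.34, 5.05 and 4.65 in WT cells (difference -3.05 ± 0.37, adjusted p = 0.0155). Ccrl2, a receptor that holds chemerin on the cell surface, had 2.08, 2.78, 0.64 and 3.38 in HDC-/- against 5.60, 5.09, 5.46 and 5.18 in WT (difference -3.11 ± 0.48, adjusted p = 0.0433). Both groups were clear of each other in each gene, and the HDC-/- arrays also lay below all 12 other arrays of the series. Ccl4, a chemokine that draws monocytes and T cells, had 2.02, 2.10, 0.10 and 1.53 in HDC-/- against 4.83, 3.79, 3.62 and 3.79 in WT (difference -2.57 ± 0.38, adjusted p = 0.0433). Il23a, the p19 chain of interleukin 23, had -5.62, -4.71, -8.12 and -5.62 in HDC-/- against -1.56, -2.30, -3.74 and -3.40 in WT (difference -3.26 ± 0.50, adjusted p = 0.0433). It was well above background on 3 of 4 HDC-/- arrays, and the difference was -2.71 with the dim array raised in the same way. Sele, which encodes E-selectin, an adhesion molecule of endothelium, was lower by 3.67 and well above background on 1 of 4 HDC-/- arrays (-2.66 with the dim arrays raised). Each of these genes was also lower than in STAT6-/- cells, by 2.29 for Acod1, 2.51 for Ccrl2, 1.66 for Ccl4, 1.78 for Il23a and 2.84 for Sele (1.23 and 1.83 with dim arrays raised), none of which was called. Further lower calls were Retn (resistin, -1.67), Ido1 (a tryptophan-degrading enzyme, well above background on 0 of 4 HDC-/- and 3 of 4 WT arrays), Klhl25 (-2.19), Mir22hg, the host transcript of miR-22 (-2.48), Arl2bp (-3.01), Zfp503 (-2.62) and C130026I21Rik (-2.55).

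All 4 HDC-/- arrays lay above all 4 WT arrays in 217 features (0.762%) and below them in 562 (1.97%). Against all 12 other arrays of the series, the counts were 14 above (0.0492%) and 58 below (0.204%). Of the 22 genes named from the fit over both tissues, 10 were in this last group: Vps16, Gchfr and Itpa above, and Rbbp9, Sele, Ccrl2, Acod1, Mgme1, Zfp503 and Ccl4 below. The call depended on single arrays in many of them. Oas1a, Vps16, Oas1f, Ctps2, Gm10421, Rbbp9 and C130026I21Rik kept it when each of the 8 arrays was left out in turn, and the other 15 lost it without at least 1 array. Without HDC-/- marrow on HFD 0 of the 22 lost it, without HDC-/- marrow on control diet 9, and without any other single array between 12 and 15. The number of calls over both tissues was 238 without HDC-/- marrow on HFD and between 7 and 21 without any other array.

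**Figure D2:**
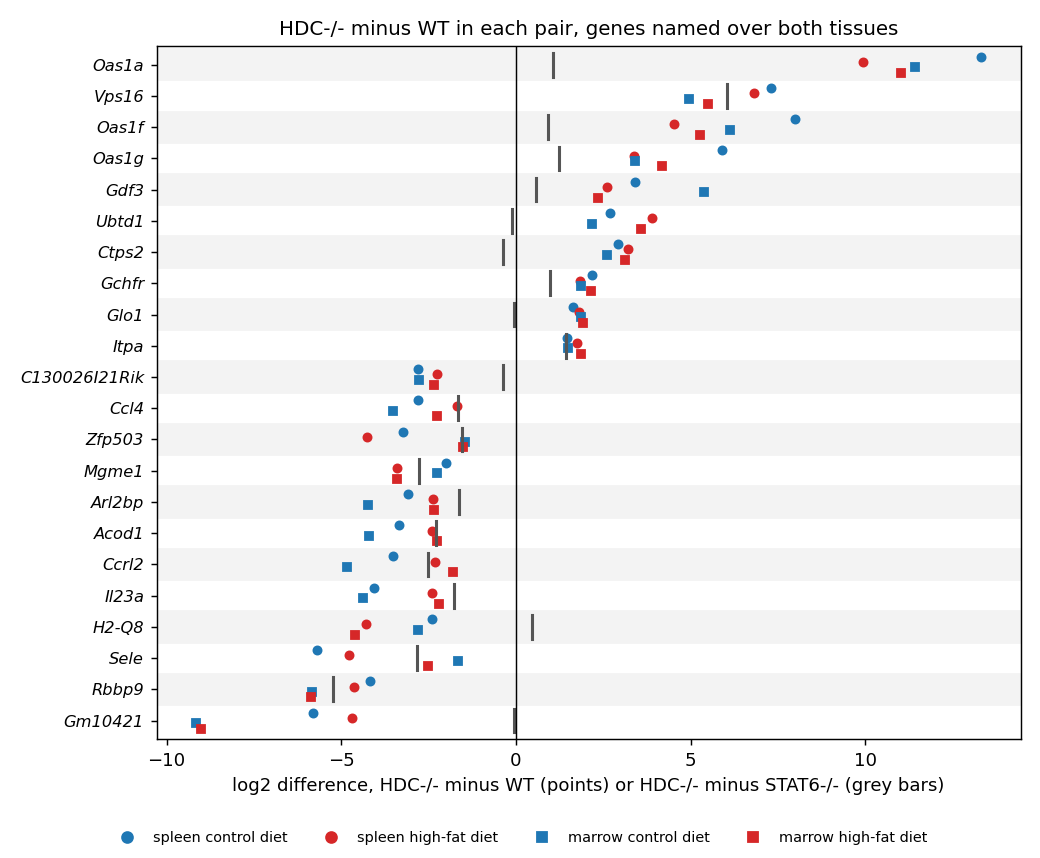
Log2 difference HDC-/- minus WT (horizontal axis) in each of the 4 pairs for the 22 genes named over both tissues. Circles are spleen, squares marrow, blue control diet and red HFD, and the grey bar is HDC-/- minus STAT6-/-. The bar of Vps16 (6.05) and Rbbp9 (-5.23) lies among the points, and that of Ctps2 (-0.36) near 0. Signals not well above background are plotted as measured.

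On HFD alone, where the Y-linked genes of all 4 arrays were present, 1 feature was called (0.00351%), and 1413 passed an unadjusted p under 0.05. The model had 3 residual degrees of freedom. The called gene was Oas1a, at least 1212-fold higher in HDC-/- cells (fitted difference 10.48 ± 0.53, adjusted p = 0.0101). It lost the call without WT spleen on HFD and without WT marrow on HFD (adjusted p up to 0.333), and limma on the 4 HDC-/- and WT arrays on HFD alone called 0 features (1109 at an unadjusted p under 0.05). Vps16 differed by 6.15 ± 0.51 and Rbbp9 by -5.26 ± 0.44 (at least 26.2-fold lower in HDC-/-, where neither array was well above background), both with an adjusted p of 0.0577. Lipg and Fam20c, also close to the threshold, were low on the control-diet arrays of both genotypes. Lipg, which encodes endothelial lipase, had -0.34 and 0.14 on the HFD arrays of HDC-/- cells, against -5.31 and -5.24 in WT (difference 5.18 ± 0.40, adjusted p = 0.0577). On control diet it had -6.03 and -6.34 in HDC-/- and -4.84 and -4.07 in WT. Fam20c, a kinase of secreted proteins, had 1.95 and 2.43 on HFD in HDC-/- against -2.50 and -1.70 in WT (difference 4.29 ± 0.43, adjusted p = 0.0971), and -2.72 and -2.74 against -2.06 and -0.71 on control diet.

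Among the lower genes on HFD that missed the threshold, Slc7a11, the cystine importer, had -4.88 and -3.07 in HDC-/- cells, against -1.18 and 0.43 in WT cells (difference -3.61 ± 0.36, adjusted p = 0.0971). Clec12b, an inhibitory lectin receptor, had -6.43 and -7.04 in HDC-/- against -1.77 and -3.35 in WT, at least 13.9-fold lower in HDC-/- (adjusted p = 0.18). H2-Q8 and Mgme1 were lower by 4.45 and 3.41. Hdc, fitted on 7 HFD arrays because of the STAT4-/- spot left out, was lower by 3.53 ± 0.42 with an adjusted p of 0.279. The test of whether diet altered the HDC-/- minus WT difference called 2 features (0.00702%), the Y-linked Eif2s3y and Ddx3y, whose signals were low on the control-diet HDC-/- arrays as given above. Lipg and Fam20c, with interaction estimates of 6.90 and 5.63, missed it at adjusted p of 0.0573 and 0.0582. Ifit3, an interferon-induced gene, did so on the other side: it had 5.62 and 4.79 in HDC-/- against 3.47 and 1.64 in WT on control diet, but -0.63 and -0.04 against 2.59 and 1.60 on HFD (interaction -5.08, adjusted p = 0.0614).

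Taken pair by pair, the differences were unequal in number. In spleen on control diet 7311 features (25.7%) were at least 2-fold higher in HDC-/- and 1569 (5.51%) lower, and in spleen on HFD 3642 (12.8%) were higher and 1655 (5.81%) lower. In marrow on control diet 3052 (10.7%) were higher and 10695 (37.6%) lower, and in marrow on HFD 712 (2.5%) were higher and 5813 (20.4%) lower. The medians over all features were 0.40, 0.27, -0.71 and -0.24, so the counts carry a shift of the whole array. In spleen on HFD the balance turned with the scaling, to 1733 higher and 2892 lower with median scaling and 1916 higher and 2368 lower with quantile scaling. In all 4 pairs at once, 20 features (0.0702%) were at least 2-fold higher and 92 (0.323%) lower, and 35 of the 43 called features were among them. The correlation of the 2 arrays over all features was 0.973, 0.976, 0.940 and 0.975, lowest for marrow on control diet.

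The spleen pair on control diet was marked by neutrophil-attracting chemokines on the lower side. Cxcl2 had -0.36 in HDC-/- against 5.57 in WT, Cxcl1 had -5.82 against 0.35, and Cxcl3 had -5.73 against 1.16. Maff, a small Maf transcription factor, had -2.82 against 4.30. On the higher side were Fabp4, a fatty acid carrier (1.62 in HDC-/- against -3.01 in WT), Ptgis, prostacyclin synthase (-2.14 against -5.73), and Prg4, lubricin (-0.66 against -4.22). In spleen on HFD the chemokine difference was small, with Cxcl1 at -1.47 in HDC-/- and -0.68 in WT. There the lower side held Csf1, the growth factor of macrophages (-1.56 in HDC-/- against 3.04 in WT), and Fgl2 (-0.32 against 3.93), and the higher side held Stfa3, a cathepsin inhibitor of granulocytes (6.08 against 1.72).

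In marrow on control diet the higher side held Cxcl12, the stromal chemokine that retains blood progenitors (2.53 in HDC-/- against -3.03 in WT), Igfbp5 (1.02 against -4.29) and Alox12, the platelet lipoxygenase (1.49 against -3.95). The lower side held Maff (-3.97 against 2.29), Atf3 (-0.52 against 4.71), Hcar2, the niacin receptor (0.27 against 5.42), Mc3r (-3.80 against 2.06) and Haus2 (-2.51 against 2.64). In marrow on HFD the largest lower values, after H2-Q8, were those of Dtd1 (-2.58 in HDC-/- against 1.12 in WT), Slc22a17, a lipocalin 2 receptor (-3.53 against 0.12), Col1a1, a collagen chain (-4.82 against -1.24), and Slc7a11. Luzp1 stood on the higher side, at 2.13 against -2.28. Single pairs carry no test, and no spread is known for them.

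Fitted by tissue, 8 features were called in spleen (0.0281%) and 3360 in marrow (11.8%), of which 3294 were lower in HDC-/-. The median over all features was 0.30 in spleen and -0.45 in marrow. On the higher side the 6 spleen calls (0.0211%) were Oas1a, Vps16, Oas1f and Ctps2 with 2 features known by an accession or probe name, and on the lower side Gm10421 and Rbbp9. The marrow count was 251 with quantile scaling, of which 41 were higher and 210 lower, and 5 with another background correction; without the control-diet HDC-/- array it was 595, and without either WT marrow array it was 4. Among the genes named in marrow was Hcar2, at 0.27 and 3.12 in HDC-/- against 5.42 and 5.39 in WT (difference -3.71 ± 0.78, adjusted p = 0.0186). Lgr4, an R-spondin receptor, was at least 6.40-fold higher (adjusted p = 0.0213), and Cntnap3, a neurexin family protein, at least 3.24-fold lower (adjusted p = 0.009). Both sizes depended on the processing. The fitted difference of Lgr4 was 4.13 and ran from 0.19 to 4.53 over the alternative settings. For Cntnap3 it was -3.87 and ran from -4.25 to -1.65.

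The test of the difference between tissues called 4581 features (16.1%), of which 6 (0.0211%) had a lower difference in spleen than in marrow, with a median over all features of 0.57. With quantile scaling it called 0 (3206 at an unadjusted p under 0.05), with normexp background correction 0 (3441), without HDC-/- spleen on control diet 0 (6624), without WT marrow on control diet 0 (5869), and without WT spleen on control diet 441. The 5 genes named on the higher side were dim, among them Cntnap3, which had -4.92, -4.83, -8.14 and -8.44 in HDC-/- against -6.32, -5.04, -4.48 and -4.36 in WT. Cntnap3 was well above background on every WT array, but among the HDC-/- arrays only on those of spleen. On the other side Gm10471, a predicted gene, had -7.20, -8.09, -5.32 and -4.59 in HDC-/- against -5.82, -6.21, -5.78 and -5.67 in WT, an interaction of -2.40 (adjusted p = 0.0266) whose sign turned to 0.40 with normexp and to 0.13 with the mean of its probes.

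Gene lists are described below by their median difference minus that of all features, and by counts of members; none was tested as a list. Their members overlap with some calls above, and they were chosen with earlier results of these data known. Beside their counts at an unadjusted p under 0.05 stand 3126 of all 28471 features over both tissues and 1413 in the HFD fit. In bulk cell pools, fewer cells of a type and less RNA per cell cannot be told apart.

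Immediate early genes, the transcription factors and phosphatases that cells switch on within minutes of a stimulus, were lower in HDC-/- cells. All 21 tested lay below the all-feature median over both tissues, by a median of 1.08, 18 passed an unadjusted p under 0.05 and 0 were called. The list's mean level was 2.16, 3.34, 1.64 and 2.94 in HDC-/- cells, against 3.97, 3.67, 3.83 and 3.83 in WT cells. STAT6-/- cells lay at 3.58, 3.38, 3.70 and 3.48. The control-diet pairs carried most of it: relative medians were -1.91 and -1.29 in them and -0.56 and -0.57 on HFD. Fosb, a partner in the AP-1 transcription factor, had 0.93, 5.66, 0.88 and 4.16 in HDC-/- against 5.77, 5.40, 5.78 and 5.56 in WT. Jun had 1.71, 4.86, 1.40 and 4.28 against 4.59, 4.33, 4.38 and 4.17. Atf3, a stress-induced repressor, was low in every pair, at 1.71, 3.25, -0.52 and 3.40 in HDC-/- against 5.72, 4.99, 4.71 and 5.18 in WT (difference -3.19 ± 0.66, adjusted p = 0.127). Fos had 4.91, 5.89, 5.11 and 5.91 in HDC-/- against 5.97, 5.64, 6.61 and 6.51 in WT, and Fosl2 differed by -0.87.

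The promoter of Fos is shown as an example from this list, again from RefSeq (GRCm38.p6), with capitals marking TGACG, a part of the cyclic AMP response element.
Fos, chr12:85473640-85473939, plus strand: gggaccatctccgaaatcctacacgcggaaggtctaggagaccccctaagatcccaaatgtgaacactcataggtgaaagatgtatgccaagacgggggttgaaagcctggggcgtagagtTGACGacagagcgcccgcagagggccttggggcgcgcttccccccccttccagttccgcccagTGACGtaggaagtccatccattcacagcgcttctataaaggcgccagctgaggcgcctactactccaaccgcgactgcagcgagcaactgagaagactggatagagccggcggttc
The 2 matches begin 129 and 66 bases before the start. Searched on both strands, TGACG is found in 12 of 18 immediate early genes with a promoter in the table (66.7%), against 23% of all genes.

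Inflammatory cytokine and inflammasome genes lay lower as well, with a relative median of -1.21 over both tissues and -0.71 on HFD. Of 15 tested, 13 lay below the all-feature median in each, and 9 passed an unadjusted p under 0.05 over both tissues. Il23a was called there, where 0.151% of all features were. Il1b, a main product of the inflammasome, had 5.43, 3.39, 5.10 and 4.12 in HDC-/- cells, against 6.15, 5.84, 6.50 and 6.24 in WT cells, with larger differences on HFD (-2.28 ± 0.38, adjusted p = 0.441). Nlrp3, its sensor, had -2.28, -2.28, -3.28 and -1.08 in HDC-/- against 0.88, 0.03, 0.09 and 1.07 in WT. Il1a differed by -1.51 over both tissues. Tnf followed the diet pattern of Fosb, at 0.16 and -0.12 on control diet and 2.72 and 3.65 on HFD in HDC-/- cells, against 3.72 and 3.39 on control diet and 3.29 and 3.74 on HFD in WT cells. Chemokine ligands had a relative median of -0.69 over both tissues (11 of 15 below) and -0.46 on HFD, with ranges of -0.69 to -0.34 and -0.49 to -0.18 over the scalings. Ccl3 had 2.66, 3.77, 2.12 and 4.88 in HDC-/- against 5.22, 4.91, 5.62 and 5.69 in WT (difference -2.0 ± 0.49, adjusted p = 0.183), while Ccl2 differed by -1.02.

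Genes induced by interferon-gamma had lower signals in HDC-/- cells than in WT cells on HFD. All 18 tested lay below the all-feature median in the HFD fit, by a median of 1.41, and 12 passed an unadjusted p under 0.05, though 0 were called. The list's mean level was 2.30, 0.16, 0.83 and -0.85 in HDC-/- cells, against 2.81, 1.68, 1.24 and 0.46 in WT cells. STAT6-/- cells on the same slides lay at 0.54, 0.28, -0.58 and -1.09, near HDC-/- on HFD and below it on control diet. Gbp2, a guanylate-binding protein of the defence against intracellular microbes, had 4.56, 1.15, 3.07 and 1.52 in HDC-/- against 6.17, 4.53, 4.62 and 3.52 in WT (HFD difference -2.68 ± 0.55, adjusted p = 0.511). Igtp, another interferon-inducible GTPase, had 4.72, 1.54, 3.51 and 1.46 in HDC-/- against 5.52, 4.19, 4.59 and 3.29 in WT. Cd274, which encodes PD-L1, had 2.55, 1.23, 0.16 and -1.65 in HDC-/- against 4.34, 3.36, 2.62 and 1.52 in WT, lower in each pair. Irf1, the factor that drives many of these genes, differed by -1.13, and Gbp3 by -0.75 over both tissues.

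The type I interferon list lay on opposite sides in the control-diet pairs and in spleen on HFD. Its relative medians were 0.44 and 1.57 in the control-diet pairs and -1.48 and 0.00 on HFD, and over both tissues the median was -0.01 with a sign that flips with the scaling (-0.01 to 0.21). Isg15, a ubiquitin-like modifier, had 5.08 and 4.22 on control diet and 1.45 and 1.27 on HFD in HDC-/- cells, against 4.02 and 2.48 on control diet and 3.34 and 2.50 on HFD in WT cells. Ifit1 had 5.02 and 4.12, then -0.11 and 0.76, in HDC-/- against 3.32 and 1.84, then 2.35 and 1.71, in WT. The Oas1 genes followed this order within HDC-/- cells, being higher on control diet than on HFD, but stayed above WT on both diets. In the HFD fit 20 of 23 lay below the all-feature median, 8 with an unadjusted p under 0.05.

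Genes of division and of early neutrophil development had higher signals in HDC-/- cells on HFD. The cell cycle list had a relative median of 1.00 there, with 25 of 25 above the all-feature median and 0 called. Of this list 2 members had an unadjusted p under 0.05, near the share over all features (1413 of 28471). Its relative medians by pair were -0.60, 1.03, 0.81 and 0.79, so the spleen pair on control diet ran the other way. Mki67, a marker of dividing cells, had 2.37, 4.49, 4.84 and 4.98 in HDC-/- against 2.70, 3.15, 5.16 and 4.57 in WT. Top2a and Cdk1 differed by 1.05 and 1.07 on HFD. Against STAT6-/- the relative median of this list was -0.17. Primary granule genes, made by promyelocytes, had 8 of 8 members above the all-feature median on HFD (relative median 1.34). Mpo, myeloperoxidase, had 1.06, 5.50, 6.12 and 5.97 in HDC-/- against 2.72, 3.49, 6.10 and 5.47 in WT, and Elane, neutrophil elastase, had 1.57, 5.97, 5.98 and 6.51 against 3.41, 4.05, 6.43 and 6.16. Spleen thus held the larger differences, in opposite directions on the 2 diets: the relative medians there were -1.98 on control diet and 1.75 on HFD. Secondary granule and mature neutrophil genes had relative medians of 0.44 (0.27 to 0.67 over the scalings) and 0.01 on HFD, and the sign of mature neutrophil genes flips with the scaling.

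Cholesterol synthesis genes, targets of the transcription factor SREBP2, lay higher in HDC-/- cells on HFD, with 19 of 20 above the all-feature median (relative median 0.97), 5 with an unadjusted p under 0.05 and 0 called. Marrow on HFD had the largest relative median, 1.51, against 0.13 for spleen on HFD. Fdps, which makes farnesyl diphosphate, had 1.18, 3.09, 2.03 and 4.05 in HDC-/- against 1.04, 1.09, 2.39 and 1.73 in WT (HFD difference 2.16 ± 0.42, adjusted p = 0.511). Sqle, squalene epoxidase, had 2.76 in HDC-/- marrow on HFD against -0.12 in WT, with 0.53, 0.78 and 0.88 against 0.42, 0.35 and 0.50 in the other 3 pairs. Hmgcs1, an early enzyme of the pathway, differed by 0.64 on HFD.

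Markers of other cell types moved with the pairs, most of all with marrow on control diet. There the relative median was 3.82 for red pulp macrophage genes (16 of 17 above the all-feature median), 3.71 for pro-B and pre-B genes (12 of 13), 3.50 for erythroid genes (14 of 14), 3.00 for megakaryocyte genes (12 of 14), 2.64 for natural killer genes (15 of 15) and 2.45 for mature B cell genes (13 of 15). In the other 3 pairs the red pulp median lay between 0.19 and 0.66 and the pro-B median between -1.07 and 0.39. Spic, the factor of red pulp macrophages, had 2.58, 0.98, 0.43 and -3.82 in HDC-/- cells, against 0.28, 0.31, -3.50 and -3.45 in WT cells. Rag1, the recombinase of developing lymphocytes, had 1.09 in HDC-/- marrow on control diet against -3.74 in WT, and -5.36 against -4.14 in marrow on HFD. Pf4, a platelet chemokine, had 4.83 in HDC-/- marrow on control diet against 3.49 in WT. The control-diet spleen pair showed less of this, and not in 1 direction. Its relative medians were 0.83 for megakaryocyte genes, 0.66 for red pulp macrophage genes and 0.39 for pro-B and pre-B genes. They were -0.17 for mature B cell genes, -0.30 for natural killer genes and -0.67 for erythroid genes.

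The spleen pair on HFD differed by natural killer genes, which had a relative median of -2.42 with 15 of 15 below the all-feature median. Ncr1, the receptor NKp46, had 1.93, -1.40, -0.86 and -5.72 in HDC-/- cells, against 1.77, 1.41, -4.54 and -4.26 in WT cells, and Klrd1 had 1.01, -1.93, -1.5 and -5.68 against 0.32, 0.70, -4.49 and -4.60. Plasmacytoid dendritic cell genes had a relative median of -1.20 in that pair. The interferon-gamma and type I interferon lists were lowest in the same pair, at -1.78 and -1.48. The part of natural killer or other cells in those differences was not tested. Over the 2 HFD pairs the relative medians were -1.24 for natural killer genes (14 of 15 below), -0.70 for mature B cell genes, -0.75 for pro-B genes (-0.83 to -0.37 over the scalings) and 0.11 for T cell genes. Classical monocyte genes had 0.04, with a sign that flips with the scaling.

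**Figure D3:**
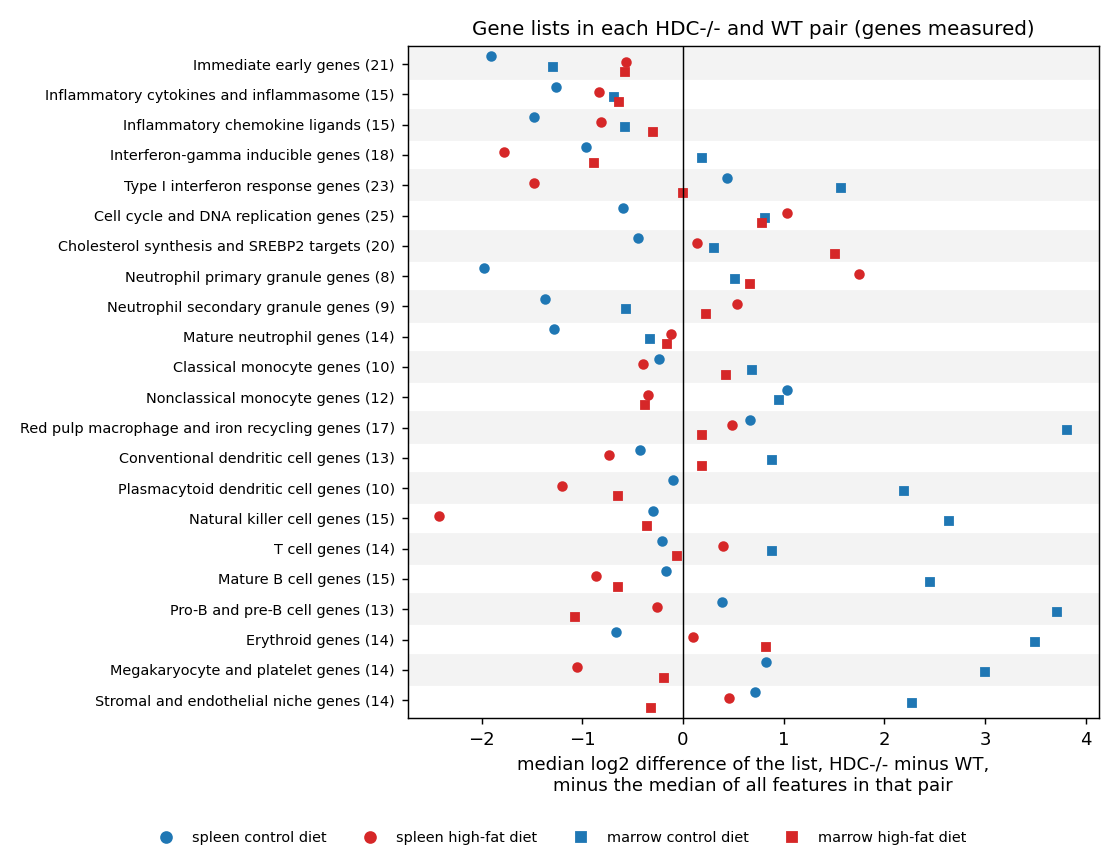
Median log2 difference HDC-/- minus WT of 22 gene lists minus the median of all features in the same pair (horizontal axis); the number of genes measured is in brackets. Circles are spleen, squares marrow, blue control diet and red HFD. Marrow on control diet (blue squares) reaches 3.82 for red pulp macrophage genes, and spleen on HFD (red circles) reaches -2.42 for natural killer genes.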

How the data were processed

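RNA of pooled CD11b+ cells was hybridised to 1-colour Agilent mouse arrays. The authors deposited scanner output of Agilent Feature Extraction 11.0.1.1; per the file headers, the processed spot intensity is background-subtracted and detrended, and arrays are not scaled to each other. The members and gene lists were chosen with earlier results of these data known.

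Here, log2 of the processed intensity minus each array's 75th percentile was used. Control spots were dropped, spots of a probe averaged, 305 probes with outlier flags left out, and the brightest probe of a gene kept. Features well above background on at least 2 arrays were tested. From 39429 probes these steps left 28471 features, of which 18666 had a gene symbol, taken from RefSeq by transcript. Precision is limited by the number of arrays. limma 3.58.1 (R 4.3.3) fitted all 16 arrays with genotype means estimated separately by tissue, plus diet effects per tissue (6 residual degrees of freedom), or the 8 HFD arrays with genotype and tissue (3), adjusting by Benjamini-Hochberg. A separate fit with all pairwise terms tested diet. The code was tested on simulated data. Where a group was not well above background, a bound was set by raising its signals to each array's lowest measurable signal where they lay under it. Where only some arrays of a group were dim, raising them in the same way was added once the data had been seen.

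Genes were named by rule: up to 12 called genes a side over both tissues and on HFD (5 by p where fewer than 3 qualified), 5 a side elsewhere, with the same direction in every pair and signal above background in the higher genotype; 5 a side in each pair; and from a list its first 3 measured and called members, with further members where all were counted; a few genes that the rule names are not reported here. Alternatives were other scalings, background correction (normexp, on median spot and background signals with offset 50), filters, probe averaging, flags, moderation, a Y-linked covariate, pair blocks, and leaving out arrays. Slide as a random block could not be fitted, since slide is fixed by genotype and tissue.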

Additional observations from a re-analysis of the deposited data

Results flagged for a closer look

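The HDC-/- minus WT difference itself differed between diets for the Y-linked genes Eif2s3y and Ddx3y, by limma's interaction test (HFD minus control diet). Eif2s3y had -8.66 and -7.77 on control diet and 2.10 and 2.91 on HFD in HDC-/- cells, against 2.42 and 3.29 on control diet and 2.21 and 2.59 on HFD in WT cells, an interaction of 11.17 (adjusted p = 0.00329). Ddx3y had an interaction of 9.90 (adjusted p = 0.011). Both calls were lost without any 1 of 6 of the 8 arrays.

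Between tissues (spleen minus marrow) the same kind of test singled out Wfdc2 at 4.26, Sh3d19 at 4.59, Cntnap3 at 4.67, Wscd1 at 4.02 and Cntnap5a at 4.06, each with an adjusted p of 0.00801, and on the other side Gm10471 at -2.40 (adjusted p = 0.0266). The median over all features was 0.57. Each of these 6 genes was well above background on 2 of 4 HDC-/- arrays. With quantile scaling or normexp 0 features were called, and the HDC-/- marrow arrays had fewer probes well above background than their WT partners (62.3% and 68.0% against 81.1% and 81.2%); the part of that in these values was not tested.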

How the results depend on the processing

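Each combination of genotype, tissue and diet has 1 array, so no number of a call has a replicate behind it, slide and genotype cannot be told apart, and 3 or 6 residual degrees of freedom limit what can be called. Every group holds a single array numbered 1, so the pairs rest on tissue and diet: limma on the 8 HDC-/- and WT arrays with the pair as a block called 0 features over both tissues (1305 at an unadjusted p under 0.05), and the 4 HFD arrays alone called 0 (1109). Hdc stayed lower by all scalings (-3.76 with median scaling, -3.69 with quantile, -3.61 against all other arrays).

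Over both tissues (43 calls) the count was 24 with normexp, 69 with trended and robust moderation, 25 with Y-linked signal in the model, 14 without the arrays labelled STAT4-/-, and 14 when both control-diet HDC-/- arrays were dropped, which was added once the data had been seen. In spleen (8) it was 4 with normexp, 4 without the STAT4-/- arrays and 3 without the control-diet HDC-/- array. In marrow (3360) it was 1796 with median scaling, 251 with quantile, 5 with normexp, 1894 with the covariate, 1736 without the STAT4-/- arrays and 590 without the control-diet HDC-/- arrays. Between tissues (4581) it was 1992 with median scaling and 0 with quantile or normexp. On HFD (1) it was 20 with median scaling, 3 with quantile, 4 with normexp and 81 with trended moderation. Between diets (2) these gave 8, 1, 41 and 109, and 8 with the stricter background filter. Against STAT6-/- (3) they gave 5, 13, 5 and 8, with 5 under the stricter filter, 5 with the mean of probes and 6 with flagged spots set missing.

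Leaving out 1 array at a time gave 7 to 238 calls over both tissues (lowest without WT marrow on HFD, highest without HDC-/- marrow on HFD), 3 to 10 in spleen, 4 to 4122 in marrow, 0 to 5816 between tissues, 0 to 1 on HFD, 0 to 2 between diets and 2 to 13 against STAT6-/-. The sign of Gm10471 between tissues turned with normexp (0.40) and with the mean of its probes (0.13); the cause was not tested for this or for the counts above.

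Of the 2-fold counts by pair, median scaling gave 4768 higher and 2903 lower in spleen on control diet, 1733 and 2892 in spleen on HFD, and 1320 higher in marrow on HFD. Quantile scaling gave 2580 higher in spleen on control diet, 1916 higher in spleen on HFD, 6161 lower in marrow on control diet, and 1333 higher and 2681 lower in marrow on HFD. Requiring both arrays above background gave 3200 higher in spleen on control diet, and 4706 and 1870 lower in marrow on control diet and on HFD.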

Other observations

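Housekeeping lists showed small differences on HFD. Of 30 cytosolic ribosomal protein genes, 29 lay above the all-feature median of the HFD fit (relative median 0.36, 0.14 to 0.65 over the scalings), as did 24 of 25 nuclear genes of oxidative phosphorylation (0.26, range 0.14 to 0.57) and 17 of 19 genes of glucose uptake and glycolysis (0.25, range 0.11 to 0.55). For oxidative phosphorylation the HFD pairs differed, with 12 of 25 above the median in spleen (-0.003) and 25 of 25 in marrow (0.43). Over both tissues the glycolysis list lay on the other side, with 15 of 19 below the all-feature median (-0.18, range -0.18 to -0.03). None of these genes was called. Toll-like receptor genes had relative medians of -0.22 over both tissues and -0.44 on HFD, and homing and egress receptors 0.12 and -0.36 (-0.44 to -0.14 over the scalings). MHC class II genes had -0.06 and -0.27, conventional dendritic cell genes -0.30 and -0.41, and nonclassical monocyte genes 0.48 and -0.24 (-0.28 to -0.06).

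Lists tied to lipid handling beyond synthesis had fitted relative medians slightly above 0, unequally by pair. Cholesterol efflux and LXR target genes had 0.40 over both tissues and 0.32 on HFD, and scavenger receptors for modified lipoprotein 0.38 and 0.12. By pair the efflux list lay at -0.16, -0.08, 1.21 and 0.47, and the scavenger list at 0.71, 0.05, 1.38 and 0.11. Genes of IL-4 response and alternative activation had -0.08 and -0.06. Heat shock chaperones had -0.34 over both tissues. Immature and suppressor myeloid genes had -0.16 over both tissues, plasma cell genes 0.28, stem and progenitor genes 0.25, stromal and endothelial genes 0.85 (0.20 to 0.85 over the scalings), and basophil and mast cell genes 0.32. For the plasma cell, stem, stromal and basophil lists, marrow on control diet had the largest relative medians, at 1.86, 1.98, 2.28 and 2.25. In spleen on control diet these lists lay at -0.67, -0.26, 0.72 and -0.78. For leukocyte integrins (-0.06), Fc gamma receptors with NADPH oxidase (-0.09), eosinophil genes (0.01) and plasmacytoid dendritic cell genes (0.01) the sign over both tissues turned with the scaling.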
